A study of Arabidopsis thaliana with 13 samples.

Results

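AT3G61400 is an Arabidopsis thaliana gene for a dioxygenase that uses 2-oxoglutarate and iron, and the genes described here are AT3G61400 and 9 loci of the same enzyme family related to it. They were chosen as the probe sets that the array's gene table assigns to the listed loci, and all 10 were found, each with 1 probe set of its own, among the 22810 probe sets of the array, in which the gene table names 13286 different genes. Probe sets assigned to several genes included none of them (0). AT3G61400 was chosen by its signal in roots of the mutant clv1-15 and of Ler, where it was much higher in the mutant, and the other loci were listed for their relation to it. Its values in clv1-15 and Ler, and those of its relatives in the same comparison, are therefore given as a description without a test.

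Whole roots of 10-day-old plants grown at 22 °C on MGRL medium with 0.1 mM KNO3 were compared on 13 arrays in 5 groups. CLE3ox 12-1 and CLE3ox 17-3 (2 arrays each) are lines that overexpress the secreted signalling peptide CLE3 in the Col-0 background. The mutant clv1-15 (3 arrays) carries an allele of CLV1, a receptor kinase for peptides of that kind, in the Ler background. The wild types were Col-0 (3 arrays), the background of both lines, and Ler (3 arrays), the background of the mutant. All plants had 1% sucrose in the medium and 16 h of light per day. The promoter driving CLE3 is not given in the sources used here, and each overexpression group is 1 line, so a property of a line and an effect of CLE3 cannot be told apart within a line.

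Dioxygenases of this class use iron, oxygen and 2-oxoglutarate to hydroxylate or desaturate small molecules, and plants employ them in making and removing hormones, flavonoids, coumarins and glucosinolates. The 10 members belong to a branch whose proteins are annotated as homologues of ACC oxidase, the enzyme of the last step of ethylene synthesis. For most of them, AT3G61400 included, the substrate is not established to an extent that allows a role to be stated. AT2G25450, a gene of the same branch outside the list, encodes the enzyme that hydroxylates the side chain of an alkenyl glucosinolate, a defence compound of Brassicaceae.

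Several members are neighbours in the genome. On chromosome 1, AT1G06620, AT1G06640 and AT1G06650 lie in a row with 1 other gene between each of them and the next. On chromosome 5, AT5G59530 and AT5G59540 are adjacent, and AT5G43440 and AT5G43450 are separated by 2 genes, both annotated as long noncoding RNAs. AT1G03400 and AT1G04350 lie apart on chromosome 1, next to or near other genes of the branch, and AT3G61400 stands alone on chromosome 3.

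Labelled single-stranded cDNA is named in the labels' protocols, whereas arrays of this type are designed for antisense cRNA. Which strand was hybridised is not given in the sources used here, so the signals are described as deposited. Signals are MAS5 intensities on a linear scale, set by the authors' scaling to the same trimmed mean of 500.0 on every array. A signal of one probe set says nothing about the signal of another, so levels are compared within a gene only. Median signals per array lay between 189.8 and 200.1. The number of arrays limits the precision. Differences were taken on the log2(signal + 16) scale, which understates changes of dim probe sets, and tested with limma over the 15922 probe sets left after the lowest 30% by mean signal were set aside, the limit being a signal of 54.6. A probe set passed at an adjusted p under 0.05. Of the members, 9 were tested. The exception was AT5G43440, which was left out for its low signal. AT3G61400 itself had a mean below that limit in both lines and above it in the other 3 groups. Its mean over all arrays of the Col-0 background was also below the limit. It was thus kept only through clv1-15 and Ler, the groups that chose it. Without the filter its difference in CLE3ox against Col-0 was -0.86 (limma adjusted p = 0.021). Of the root markers listed for a check of the tissue, 3 of 10 had a named probe set (EXPA7, EXPA18 and PYK10), and none was at 0. Their sum per array lay between 19068.1 and 25189.7 and was mostly PYK10.

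AT3G61400 had its lowest signals in the CLE3 overexpression lines and its highest in clv1-15. In CLE3ox 12-1 the arrays read 38.9 and 35.2. In CLE3ox 17-3 they read 31.1 and 27.5, and in Col-0 83.8, 51.0 and 89.9. Each of the 4 arrays of the overexpression lines was below each of the Col-0 arrays, and the Col-0 arrays differed among themselves more than the arrays of either line. In clv1-15 the signals were 690.4, 563.6 and 560.8, against 91.9, 128.0 and 112.5 in Ler. The mutant arrays all lay far above the Ler arrays. The group means ran in the order clv1-15, Ler, Col-0, CLE3ox 12-1 and CLE3ox 17-3, the first being 20.6 times the last, and no 2 neighbouring groups in this order overlapped. Over all tested probe sets, arrays did not overlap at 14.1% between CLE3ox and Col-0, at 26.7% between CLE3ox 12-1 and Col-0, at 34.2% between the lines, at 34.6% between clv1-15 and Ler and at 55.2% between Col-0 and Ler.

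**Figure D1:**
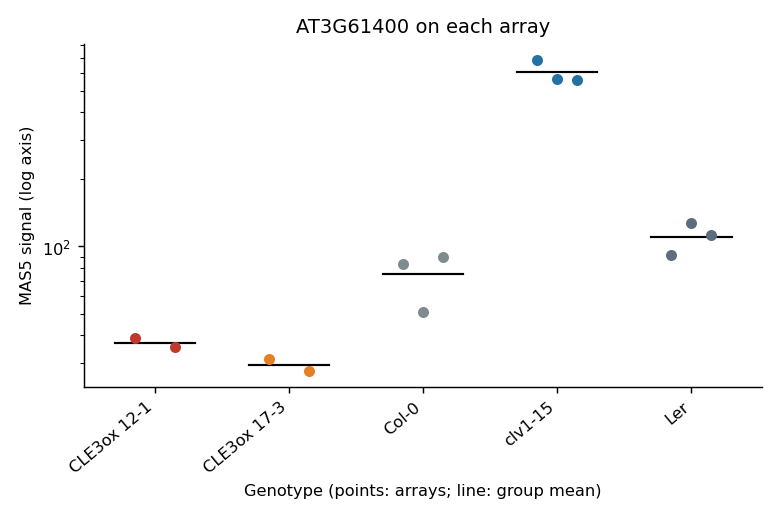
MAS5 signal of AT3G61400 on a log axis for each of the 13 arrays by genotype, with a line at each group mean. The clv1-15 arrays sit between 560.8 and 690.4, and the 4 CLE3ox arrays between 27.5 and 38.9, below the Col-0 arrays at 51.0 to 89.9.

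The comparison of CLE3ox with Col-0 shares no array with the comparison that chose AT3G61400. The members were still listed with earlier results of these data known, so the choice was not blind. AT3G61400 fell in CLE3ox, with a mean signal of 33.2 over both lines, against 74.9 ± 20.9 in Col-0 (SD, n = 3). The log2 difference was -0.86 ± 0.16 (SE, limma adjusted p = 0.0073), or 1.82-fold lower, and it was lower in 4 of 4 arrays. It ranked 42nd from the bottom of 15922 probe sets by log2 difference. With the CLE3ox signals set at the signal limit and Col-0 as measured, the gene was 1.33-fold lower. The Col-0 array that read 51.0 was itself under that limit, so this is not a firm bound. In whole roots, fewer cells of a type and less RNA per cell cannot be told apart. The size depends on the pseudocount at this signal, with -1.12 at a pseudocount of 1 and -0.51 at 64. The call was lost without the third Col-0 array (-0.74, limma adjusted p = 0.051) and with the spread estimated from CLE3ox and Col-0 alone (limma adjusted p = 0.055), over a range of 0.0015 to 0.055 across the alternatives.

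Each line was also set against Col-0 on its own. CLE3ox 17-3 was lower than Col-0 by a log2 difference of -0.98 ± 0.19 (SE, limma adjusted p = 0.0081). CLE3ox 12-1 gave -0.75 ± 0.19, which did not pass (limma adjusted p = 0.13). The same 3 Col-0 arrays served both lines, and the spread again came from all 5 groups. With only the groups compared in the fit, CLE3ox 17-3 did not pass (-0.98, limma adjusted p = 0.081). The call for CLE3ox 17-3 was lost without its second array (limma adjusted p = 0.092), and without the second Col-0 array CLE3ox 12-1 passed (limma adjusted p = 0.023). Between CLE3ox 17-3 and CLE3ox 12-1 the difference was -0.23, with a 95% interval of -0.67 to 0.22 (limma adjusted p = 0.93), so a difference between the lines was not detectable here.

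Some arrays stood apart in a hybridisation control, the spike-in bioD. The second array of each line and the third Col-0 array had bioD signals of 3894.3 to 4092.7, and the other 4 arrays of the Col-0 background 2765.1 to 3091.9. Within the lower group AT3G61400 differed by -0.69 between CLE3ox and Col-0, and within the higher group, which has 1 Col-0 array, by -1.17. This grouping was fitted as a block on the CLE3ox and Col-0 arrays alone. The difference was then -0.88 (limma adjusted p = 0.031). The grouping was made after the data were seen.

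Of the 3 root markers, both root hair expansins were below Col-0 in every CLE3ox array. Over all tested probe sets, 14.1% did not overlap in this comparison, in either direction. EXPA7 averaged 1510 in CLE3ox 12-1 and 1245 in CLE3ox 17-3, against 1709 in Col-0, and EXPA18 averaged 1781 and 1493 in the lines, against 1980 in Col-0. The log2 differences over both lines were -0.31 and -0.27, neither past the threshold (limma adjusted p = 0.073 and 0.18). In CLE3ox 17-3 alone EXPA7 was lower by -0.45 (limma adjusted p = 0.021). PYK10 differed by 0.04 over both lines and overlapped. The part of root hair cells in the signal of AT3G61400 was not tested.

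**Figure D2:**
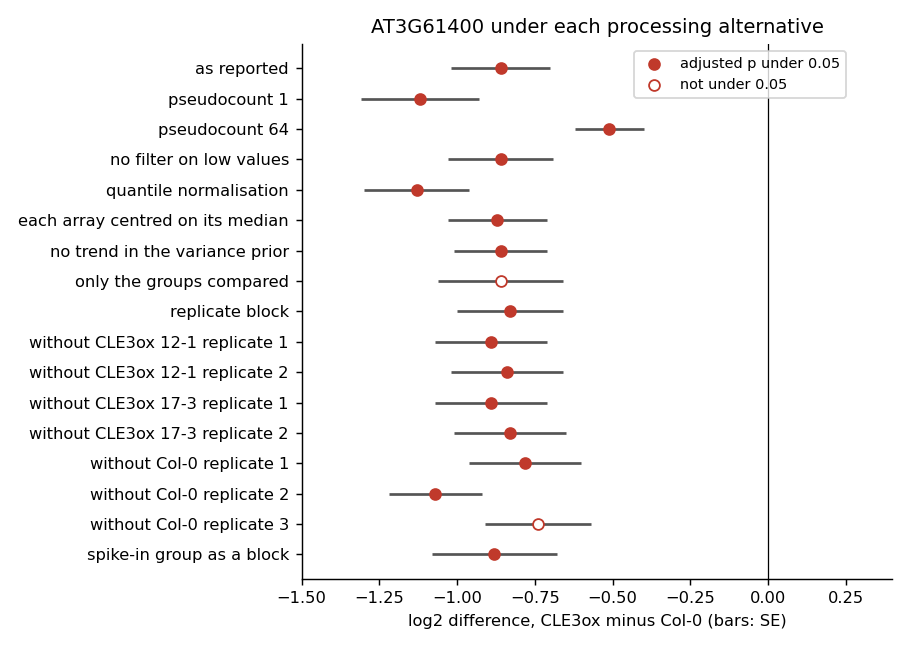
Log2 difference of AT3G61400 between CLE3ox and Col-0, with its SE, as reported and under each alternative that gave a tested value; filled points had an adjusted p under 0.05. All values are negative, from -1.13 with quantile normalisation to -0.51 at a pseudocount of 64, and the 2 open points are those without Col-0 replicate 3 and with only the groups compared.

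Among the relatives, none passed in CLE3ox against Col-0. Of the 9 members tested, 0 rose and 1 fell, which was AT3G61400, and 8 did not pass, where 2.45% of all tested probe sets passed in either direction, 1.06% higher and 1.39% lower. At an unadjusted p under 0.05, 2 members were counted, AT3G61400 and AT5G59530. The share of all tested probe sets at that unadjusted threshold was not taken, so this count has no background to be set against. The members' median log2 difference was 0.0018, against 0.0070 over all probe sets tested. The relative nearest to AT3G61400 in this comparison was AT5G59530. Its signals were 959.0 and 965.6 in CLE3ox 12-1 and 948.3 and 821.8 in CLE3ox 17-3, against 1105.8, 1254.3 and 1176.5 in Col-0. All 4 overexpression arrays were below all Col-0 arrays. The log2 difference was -0.35 ± 0.12 (SE) and did not pass (limma adjusted p = 0.18). In a fit of the CLE3ox and Col-0 arrays alone it was -0.35 (limma adjusted p = 0.055). With the spike-in grouping added to that fit as a block it was -0.34 and passed (limma adjusted p = 0.022).

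The adjacent gene AT5G59540 differed by -0.02, with a 95% interval of -0.20 to 0.15. Its 4 CLE3ox signals, from 688.8 to 711.7, lay within the Col-0 range of 654.4 to 763.8. The 3 members in a row on chromosome 1 were close to 0 as well. AT1G06620 had a difference of 0.09 (95% interval -0.11 to 0.29), AT1G06640 of 0.14 (-0.01 to 0.29) and AT1G06650 of 0.0018 (-0.23 to 0.24). The intervals of these 4 genes all lie above the value of AT3G61400.

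In CLE3ox 17-3, 3 relatives stood above Col-0 without passing. AT1G04350 had signals of 59.5 and 82.1 in CLE3ox 12-1 and 86.2 and 110.6 in CLE3ox 17-3, against 72.4, 61.2 and 53.5 in Col-0. The CLE3ox 17-3 arrays were above all Col-0 arrays and those of CLE3ox 12-1 were not. Its log2 difference was 0.34 ± 0.17 over both lines (SE, limma adjusted p = 0.38) and 0.54 ± 0.21 in CLE3ox 17-3 alone (limma adjusted p = 0.19). AT5G43450 read 199.8 and 201.5 in CLE3ox 12-1 and 280.0 and 304.1 in CLE3ox 17-3, against 184.0, 256.2 and 182.5 in Col-0. Again both CLE3ox 17-3 arrays exceeded every Col-0 array, with a difference of 0.48 ± 0.22 in that line (SE, limma adjusted p = 0.30). AT1G06640 was above all Col-0 arrays in CLE3ox 17-3 too, by 0.22 ± 0.08 (SE, limma adjusted p = 0.20). Arrays of CLE3ox 17-3 and Col-0 did not overlap at 33.6% of all tested probe sets. AT1G03400, with 4 CLE3ox signals between 46.3 and 72.7 and Col-0 signals between 54.5 and 69.9, differed by -0.04 (95% interval -0.43 to 0.35).

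Of the 9 members tested, 0 passed in CLE3ox 12-1 against Col-0, where 0.433% of all probe sets did, and at an unadjusted p under 0.05 the count was 1, AT3G61400. In CLE3ox 17-3, 1 fell, where 3.34% of all probe sets passed in either direction and 1.65% were lower. At an unadjusted p under 0.05 the count in that line was 5. AT3G61400 and AT5G59530 were lower, and AT1G06640, AT5G43450 and AT1G04350 were higher. The share of all probe sets at the unadjusted threshold was not taken. Between the lines 0 of 9 passed, against 0.264% of all probe sets. At an unadjusted p under 0.05 the count between the lines was also 0, and AT5G43450 came closest, with a difference of 0.51 and an unadjusted limma p of 0.053.

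**Figure D3:**
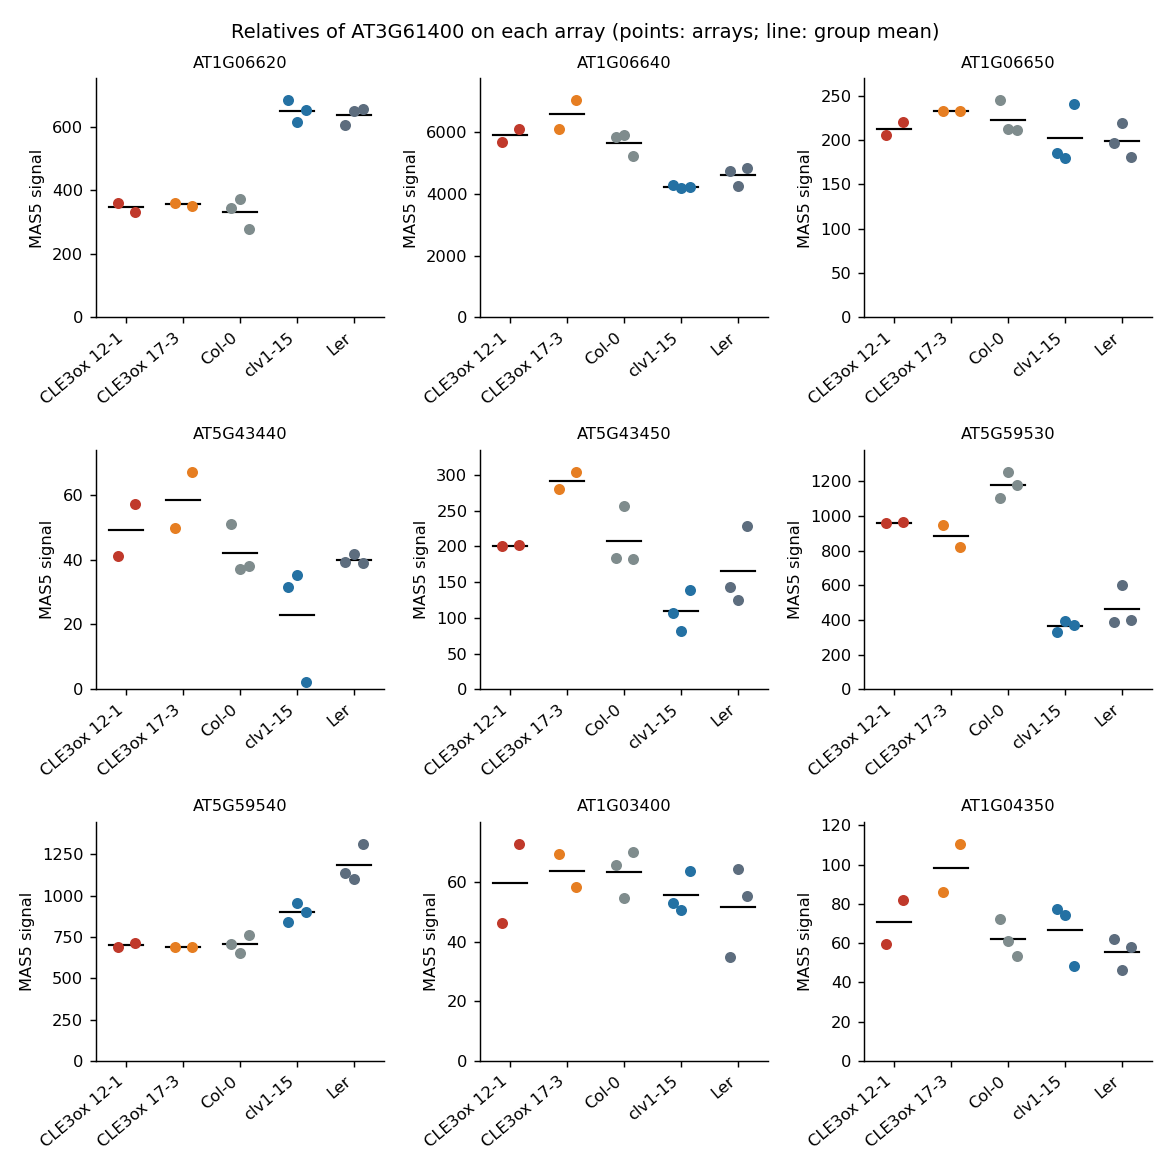
MAS5 signal of the 9 relatives of AT3G61400 on each array by genotype, on linear axes that start at 0, with a line at each group mean. AT5G59530 reads 331.9 to 599.0 in all 6 arrays of the Ler background and 821.8 to 1254.3 in the 7 of the Col-0 background, while AT1G06620 is higher in the Ler background.

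In clv1-15, AT3G61400 averaged 605 ± 74.0 (SD, n = 3), against 111 ± 18.1 in Ler (SD, n = 3). Its log2 difference of 2.30 ± 0.17 (SE) was the second highest of 15922 probe sets. The shoot markers RCA and LHCB4.1, the 2 of 9 listed shoot markers with a named probe set, were higher in clv1-15 too, with sums of 1436.9 to 1579.5 per array, against 912 to 1247.1 in Ler. In CLE3ox 12-1 the sums were 673.8 to 800.8 and in CLE3ox 17-3 1006.2 to 1022.9, against 701.7 to 773.9 in Col-0. In CLE3ox 17-3 against Col-0, LHCB4.1 was higher by 0.51 (limma adjusted p = 0.012). RCA was higher by 0.40 in that line and did not pass (limma adjusted p = 0.15). Neither marker was at 0 in any group. The part of shoot tissue in the signal of AT3G61400 was not tested.

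Of the 9 relatives, 0 had all mutant arrays above all Ler arrays and 2 had them all below, AT5G59540 and AT5G43440. Over all tested probe sets, 34.6% did not overlap in either direction. That share does not cover AT5G43440, which was not tested. AT5G59540 had signals of 843.3, 952.5 and 901.8 in clv1-15, against 1135.2, 1099.4 and 1313.2 in Ler. The log2 difference was -0.39 ± 0.09 (SE). Its neighbour AT5G59530 had 331.9, 394.3 and 372.4 in clv1-15, against 386.1, 599.0 and 400.5 in Ler, a difference of -0.30 ± 0.13 (SE). Here 1 mutant array lay within the range of Ler.

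AT5G43450 read 107.3, 81.7 and 139.2 in clv1-15, against 143.6, 124.8 and 228.9 in Ler, with overlapping groups and a difference of -0.52 ± 0.20 (SE). AT5G43440, below the signal limit, read 31.7, 35.2 and 2.1 in clv1-15, against 39.3, 41.7 and 39.1 in Ler. The third mutant array stood far below the others for this gene. The 3 members in a row on chromosome 1 differed little, with log2 differences of 0.03 for AT1G06620, -0.12 for AT1G06640 and 0.02 for AT1G06650. AT1G03400 and AT1G04350 had 0.11 and 0.19. The highest difference among the 9 relatives was thus that of AT1G04350, whose 95% interval ended at 0.58.

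**Figure D4:**
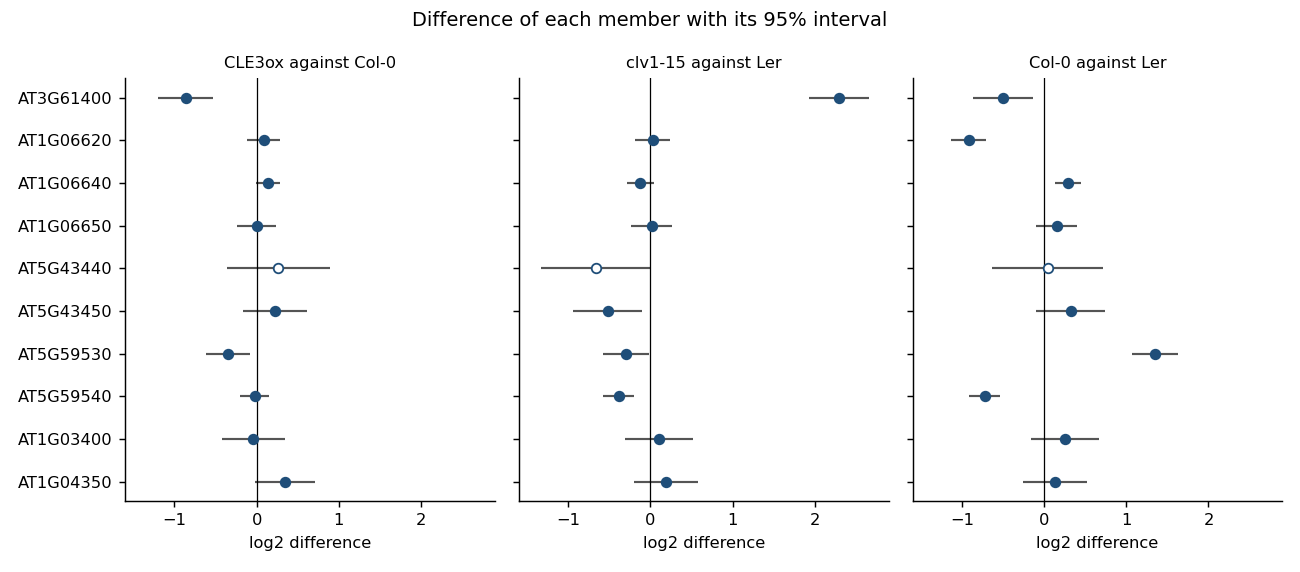
Log2 difference of each member with its 95% interval in CLE3ox set against Col-0, clv1-15 set against Ler and Col-0 set against Ler; the open point is AT5G43440, which was not tested. AT3G61400 lies at -0.86 in CLE3ox and at 2.30 in clv1-15, while in both comparisons the relatives lie between -0.66 and 0.34.

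The wild types differed at several relatives of AT3G61400. In Col-0 against Ler, 2 of the 8 tested relatives were higher, 2 were lower and 4 did not pass, where 45.7% of all tested probe sets passed, 21.2% higher and 24.5% lower. The share among the relatives is near that background. The array's probes were designed on the Col-0 genome, and the part of sequence differences in Ler was not tested. AT5G59530 was higher in Col-0, with 1105.8, 1254.3 and 1176.5, against 386.1, 599.0 and 400.5 in Ler. The groups did not overlap and the log2 difference was 1.35 ± 0.13 (SE, limma adjusted p = 7.1e-07), or 2.55-fold. The adjacent AT5G59540 went the other way, with 707.3, 654.4 and 763.8 in Col-0, against 1135.2, 1099.4 and 1313.2 in Ler. All Col-0 arrays were below all Ler arrays, by -0.72 ± 0.09 (SE, limma adjusted p = 6.5e-06).

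The row on chromosome 1 also held opposite differences. AT1G06620 was lower in Col-0, with 346.2, 374.2 and 277.8, against 606.3, 650.4 and 657.7 in Ler, a log2 difference of -0.92 ± 0.10 (SE, limma adjusted p = 2.6e-06). AT1G06640 was higher in Col-0, with 5845.0, 5894.4 and 5215.3, against 4741.5, 4252.3 and 4831.0 in Ler, by 0.29 ± 0.08 (SE, limma adjusted p = 0.0048). In both genes the wild types did not overlap. AT1G06650 did not pass, with 0.15 and a 95% interval of -0.10 to 0.41.

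AT3G61400 had a log2 difference of -0.50 ± 0.17 (SE) between Col-0 and Ler, with all Col-0 arrays below all Ler arrays. The Ler arrays also served the comparison that chose this gene, so this is a description without a test, and leaving out 1 array at a time gave -0.62 to -0.29. AT5G43450, AT1G03400 and AT1G04350 had differences of 0.32, 0.26 and 0.13 that did not pass. For AT5G43450, leaving out the third Ler array gave 0.56 and a limma adjusted p of 0.024.

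The same branch of the family holds 6 further listed loci. One of them, AT1G06645, had no named probe set, and 2A6 (AT1G03410) had 2, so that 6 probe sets were measured and 4 tested. AT1G04380 and AT2G30830 were below the signal limit. AT2G25450, the glucosinolate gene, was at 1770.5, 1548.2 and 1751.1 in Col-0, against 34.5, 35.0 and 26.6 in Ler. The Ler signals all lay below the limit for low signal, so the gene was kept only through the Col-0 background and the difference has only a bound. Set against that limit, it was at least 30.9-fold higher in Col-0. The mutant clv1-15, at 23.3, 25.6 and 29.6, was below the limit too.

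In the Col-0 background AT2G25450 rose in CLE3ox 17-3, to 2399.3 and 2715.5, against 1770.5, 1548.2 and 1751.1 in Col-0, by 0.59 ± 0.12 (SE, limma adjusted p = 0.013). CLE3ox 12-1 had 1697.3 and 2091.7, which overlapped with Col-0, and a difference of 0.16 ± 0.12 (SE, limma adjusted p = 0.82). Over both lines the difference was 0.38 ± 0.10 (SE) and did not pass (limma adjusted p = 0.074). The direct difference between CLE3ox 17-3 and CLE3ox 12-1 was 0.43 ± 0.14 (SE) and did not pass either (limma adjusted p = 0.36). The call in CLE3ox 17-3 was lost without its second array (limma adjusted p = 0.18) and without the second Col-0 array (limma adjusted p = 0.058).

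2A6 was lowest in Ler with both of its probe sets. The brighter one read 935.0, 1067.6 and 957.9 in clv1-15, against 517.6, 531.2 and 549.1 in Ler, and the dimmer one 92.1, 107.6 and 107.1 in clv1-15, against 49.6, 60.2 and 51.0 in Ler. The mutant exceeded all Ler arrays in both, with log2 differences of 0.87 ± 0.08 and 0.77 ± 0.17 (SE). AT3G61400 and 2A6 were the 2 measured genes of the branch with all 3 mutant arrays above all Ler arrays. Over all tested probe sets, 34.6% did not overlap in that comparison, in either direction. The 2A6 probe sets averaged 987 and 102 in clv1-15, against 868 and 119 in Col-0. AT3G61400 averaged 605 in clv1-15, against 74.9 in Col-0. In Col-0 against Ler the 2 probe sets gave 0.69 ± 0.08 and 0.96 ± 0.17 (SE, limma adjusted p = 6.8e-06 and 0.00024). In CLE3ox against Col-0 they gave 0.06 and -0.21, and neither passed (limma adjusted p = 0.78 and 0.61). AT1G03400, which is adjacent to 2A6, did not pass in any of these tests. AT2G30840 had signals between 441.2 and 590.8 on all 13 arrays and did not pass in any comparison tested.

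**Figure D5:**
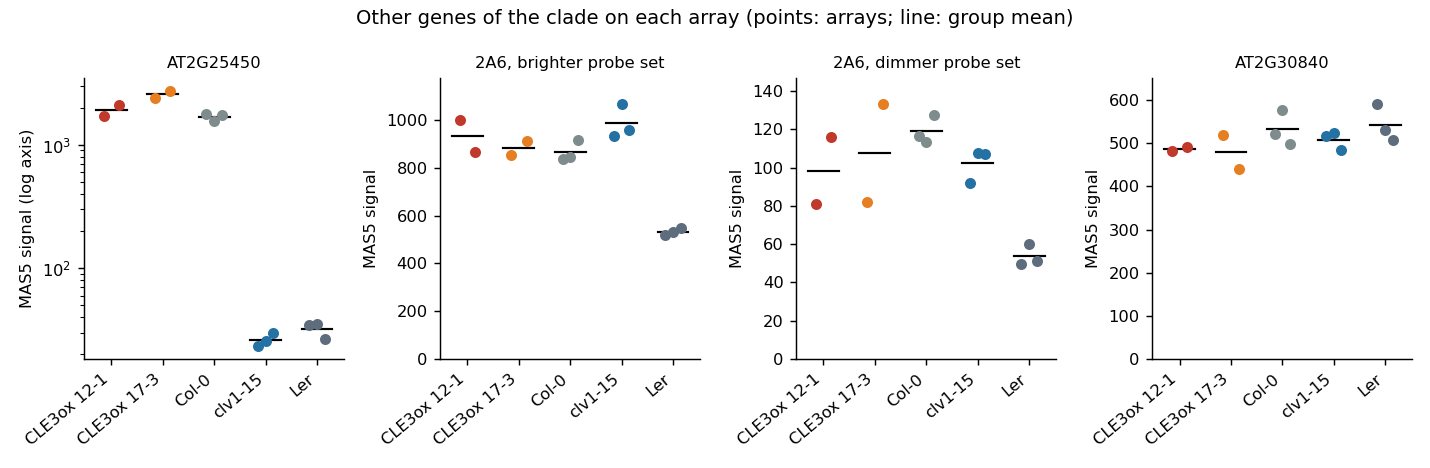
MAS5 signal on each array by genotype for AT2G25450 (log axis) and, on linear axes from 0, for both probe sets of 2A6 and for AT2G30840, with a line at each group mean. AT2G25450 is at 23.3 to 35.0 in all arrays of the Ler background and at 1548.2 or more in the Col-0 background, and 2A6 is lowest in Ler.

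A wider set of 65 dioxygenase loci with known or listed roles had 31 named probe sets, of which 23 were tested. In CLE3ox against Col-0, 0 rose, 2 fell and 21 did not pass, where 2.45% of all tested probe sets passed. Both falls were in coumarin synthesis, a pathway that helps roots take up iron. AT3G12900, the scopoletin 8-hydroxylase gene, averaged 127 in CLE3ox and 512 in Col-0, with a log2 difference of -1.86 ± 0.30 (SE, limma adjusted p = 0.0029). AT3G13610, the feruloyl-CoA 6'-hydroxylase gene, differed by -0.43 ± 0.08 (SE, limma adjusted p = 0.0074). The other listed coumarin gene, AT1G55290, differed by -0.23 ± 0.10 (SE) and did not pass (limma adjusted p = 0.27). The median of the 23 was -0.03. In Col-0 against Ler 7 were higher and 8 lower, where 45.7% of all tested probe sets passed. Among those with the lowest adjusted p, the ACC oxidase gene AT1G12010 was higher in Col-0 by 1.85 and the auxin oxidase gene AT1G14120 was lower by -1.12 (limma adjusted p = 1.4e-09 and 2e-08). AT3G12900 and the glucosinolate gene AOP3 had a mean below the signal limit in one wild type and were kept through other groups, so their differences are bounds. AT3G12900 averaged 512 in Col-0 and 37.5 in Ler and was at least 8.97-fold higher in Col-0. AOP3 averaged 20.3 in Col-0 and 852 in Ler and was at least 15.6-fold lower in Col-0.

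Genes outside the list were ranked by how closely their log2 signals followed those of AT3G61400 over the 13 arrays, among 8687 single-gene probe sets. The arrays share their scaling and fall into 2 accession backgrounds, so these are descriptions of the arrays. After the mean of each background was subtracted, the 5 highest Pearson correlations were those of MSRB9, AT3G53980, AT2G16980, AT5G19810 and AT4G12360, from 0.95 to 0.98. MSRB9 encodes a methionine sulfoxide reductase and AT5G19810 an extensin-like protein. Without that subtraction the 5 highest were MSRB9, AT1G74055, AT5G55050, SDH1-2 and SCPL32, from 0.95 to 0.97, so that MSRB9 led both rankings. MSRB9 read 10660.1, 9972.7 and 9800.3 in clv1-15, against 6885.3, 7107.4 and 6779.8 in Ler. It read 5898.2 to 6289.9 in the 4 CLE3ox arrays, against 6991.8 to 7466.1 in Col-0. Its log2 differences were 0.55 in clv1-15 and -0.24 in CLE3ox, each in the direction of AT3G61400 and smaller. The ranking used these same arrays, so the shared direction comes with the choice of MSRB9 and is no separate finding.

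Among the members, correlations had both signs. Over their 45 pairs, with the mean of each background subtracted, Pearson correlations over the 13 arrays ran from -0.73 to 0.73 with a median of 0.0057. Without that subtraction they ran from -0.93 to 0.87 with a median of 0.04. The pair of AT3G61400 and AT5G59540 was the lowest with the subtraction, and its correlation was 0.45 without it.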

How the data were processed

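RNA of whole roots was measured on 13 Affymetrix ATH1 arrays. The deposited values are linear intensity, processed by the authors with MAS5 per the submitters' processing notes (version not given in the sources used here). All arrays had a mean of 500.0 once the top and bottom 2% of values were removed. Columns without a sample numbered 0, and no 2 arrays were identical (0 pairs). The labels call the arrays biological replicates; whether they came from separate cultures is not stated, so p-values measure the spread between these samples.

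Signals were converted to log2(signal + 16). Of 22810 probe sets, 64 were controls and were removed, and so was the dimmest 30% of the rest, so that 15922 were tested. All 5 groups entered 1 model in limma 3.58.1 (R 4.3.3, eBayes with a trend), and p-values were adjusted by Benjamini-Hochberg across the tested probe sets of a comparison. For CLE3ox the averages of the lines were averaged before Col-0 was subtracted, so the SE does not hold the spread between lines. Differences of AT5G43440 come from the fit without the filter. The fit was tested on simulated data. Probe sets were named through the array's gene table and TAIR10.1 gene IDs, where 13436 of 13513 single-gene probe sets matched. 8730 probe sets had no gene name there and are not used here. No sequences were used here.

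The members, the lists and the naming rule were chosen with earlier results of these data known. The rule names all members, the measured genes of the branch, the wider dioxygenases with the lowest adjusted p, and the 5 genes most like AT3G61400 in each of 2 rankings. Alternatives were 2 other pseudocounts, 2 filters, 2 scalings, the variance prior, the groups fitted, a replicate block and leaving out each array. The spike-in grouping was added after the data were seen.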

Additional observations from a re-analysis of the deposited data

How the results depend on the processing

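No alternative turned the sign of AT3G61400 in any comparison or of any difference that had passed. With the lowest 50% of probe sets left out AT3G61400 itself was no longer tested, so the count of members past the threshold was 0 in CLE3ox and 0 in CLE3ox 17-3. With only the groups compared in the fit, which leaves fewer arrays to estimate the spread, AT3G61400 did not pass in CLE3ox (-0.86, count 0) or CLE3ox 17-3 (-0.98, count 0). With quantile normalisation AT3G61400 passed in CLE3ox 12-1 (-0.96, count 1). With the spike-in grouping as a block, fitted on the CLE3ox and Col-0 arrays alone, 2 members passed in CLE3ox. AT3G61400 had -1.17 within the higher spike-in group. The causes of these last changes were not tested. In clv1-15, where no test is given, the difference of AT3G61400 was 1.94 at a pseudocount of 64. Leaving out 1 array at a time gave AT3G61400 differences of -1.07 to -0.74 in CLE3ox, -0.96 to -0.63 in CLE3ox 12-1, -1.18 to -0.85 in CLE3ox 17-3, -0.62 to -0.29 in Col-0 against Ler and 2.18 to 2.39 in clv1-15, and counts past the threshold of 0 to 1 members in CLE3ox and in each line and 4 to 5 relatives in Col-0 against Ler. Where a line kept 1 array, its spread was borrowed from the rest. Arrays share replicate numbers, and deviations of same-numbered arrays correlated at 0.02 to 0.18 between clv1-15 and Ler and at -0.19 to 0.30 in the Col-0 background, not over 0.1 in every pair, so the numbers were not taken to pair the arrays. As a hint from the data, 5 of the 6 clv1-15 and Ler arrays and 2 of the 6 Col-0 and Ler arrays correlated best with their own number, and a shared batch was not tested. The replicate block left all 5 counts as they were, with AT3G61400 at -0.83 in CLE3ox.

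Signs turned only for values that passed neither before nor after or, in clv1-15, were not tested. In CLE3ox these were AT1G06650 (-0.01 with quantile normalisation, 0 with median centring, -0.05 in the lower spike-in group, -0.03 to 0.07 without 1 array), AT5G59540 (0.02 with the replicate block and in the lower spike-in group, -0.08 to 0.03 without 1 array), AT1G03400 (0.02 with the replicate block, -0.17 to 0.09 without 1 array), AT1G06620 (-0.03 to 0.17) and the brighter 2A6 probe set (-0.05 in the higher spike-in group). In CLE3ox 12-1 they were AT5G43450 (0.08 with the replicate block, -0.11 to 0.12) and AT1G04350 (-0.05 to 0.33). In Col-0 against Ler it was AT2G30840 (-0.08 to 0.04). In clv1-15 they were AT1G06620 (-0.01 to 0.07), AT1G06650 (-0.11 to 0.09) and AT1G03400 (-0.08 to 0.25). Dim signal limits AT3G61400 in the Col-0 background, AT5G43440, AT1G03400 and AT1G04350.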
